A study of Rattus norvegicus with 24 samples.

Results

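In PC12 cells, 39 genes had a lower mean RNA level in the later group of each of 4 labelled pairs, 3 d below 6 h and 10 d below 24 h in both the α1ACT and the vector line. PC12 cells are rat chromaffin tumour cells, derived from the adrenal medulla. A gene was a member where log2 of the later over the earlier group mean, each with 0.5 CPM (the usual unit of counts scaled to the library's total on genes) added, was at most -0.2 in all 4 pairs, and where its mean over all 24 libraries was at least 5 CPM. Of 17055 genes listed, 8751 reached that mean, and the 39 members made up 0.446% of them. The same rule turned upward held for 99 genes (1.13%). The members were chosen by the measured values of these 4 ratios, so the ratios are given as a description and with no test.

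The series holds 24 RNA-seq libraries of total RNA depleted of ribosomal RNA, 3 in each of 8 groups. The α1ACT line stably expressed human α1ACT, a carboxy-terminal fragment of a calcium channel gene's product, and the vector line stably carried the pcDNA3 plasmid without it. Libraries of each line were labelled 6 h, 24 h, 3 d and 10 d, and the labels do not state the event those times are counted from. Both lines were at passages 18 to 20, grew in F-12K medium with 10% horse serum and 2.5% fetal bovine serum, and received no further treatment, and nothing in the labels shows more than 1 stable line of each kind.

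The names of the deposited files disagree with the labels about the group of 18 of the 24 libraries. By those names each labelled pair is a comparison at a single time of Q11, the tag that the sample titles give to α1ACT libraries, with P, their tag for the vector. The α1ACT 3 d and 6 h pair would then be Q11 and P at 24H, the α1ACT 10 d and 24 h pair Q11 and P at 10D, the vector 3 d and 6 h pair Q11 and P at 6H, and the vector 10 d and 24 h pair Q11 and P at 3D. The labelled groups are used throughout. The 2 groups of each labelled pair were closest to each other in RNA levels. Their root-mean-square log2 distances were 0.127 and 0.157 for the α1ACT pairs and 0.139 and 0.173 for the vector pairs, in the order 3 d with 6 h, then 10 d with 24 h. Groups of different pairs were at least 0.308 apart. Which of the 2 namings is right was not tested and was not settled by the sources used here. A reader who takes the file names would read the 39 genes as lower in Q11 than in P libraries at all 4 times, and the comparisons between pairs further on as differences between times.

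PC12 cells store catecholamines and peptides in dense-core granules, and their exocytosis draws on Rab effectors such as granuphilin and on intracellular calcium. They respond to secreted and membrane-bound cues of the nervous system, among them netrins, BMPs and the peptide PACAP. Proteases outside the cell, such as collagenases and matriptase, cut matrix proteins and surface receptors, while polyamines made by ornithine decarboxylase are needed for growth.

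Libraries held 8679560 to 14486248 counts on genes, so 3 counts stood at 0.207 to 0.346 CPM. All 11 chromaffin markers in the tables averaged at least 1 CPM, with a summed level of 27083 to 38118 CPM, and the fibroblast markers Col1a2, Lum and Pdgfrb, the glial markers Sox10 and Fabp7, the immune markers Ptprc and Aif1 and the endothelial markers Kdr and Emcn had no count in any library. Replicates 1 and 3 were the closest pair of libraries in 8 of 8 groups, with a chi-square of 1.98 to 5.28 per degree of freedom, and replicate 2 stood further off, at 3.65 to 11.3. Members differed in this. Adcyap1r1, Podxl, LOC683613 and Ugt8 were lower in replicate 2 than in the mean of replicates 1 and 3 in all 8 groups, and Bmp7 and Samd4a were higher in all 8.

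Promoter windows, 250 bases before to 50 after the annotated start, were found by symbol for 25 of the 39 members in RefSeq's GRCr8 annotation of the rat. Those shown belong to the member with the largest of the ratios, Mmp13, to the other 2 members that carry the same AP-1-type motif, Dclk1 and Rtn4ip1, and to Odc1, whose start carries several GC boxes. They run 5′ to 3′ on the gene's strand, all 4 on the plus strand, at chr8:12782579-12782878 for Mmp13, chr2:141782634-141782933 for Dclk1, chr20:48964685-48964984 for Rtn4ip1 and chr6:46058415-46058714 for Odc1. Capitals mark exact matches on either strand to a motif searched.
Mmp13: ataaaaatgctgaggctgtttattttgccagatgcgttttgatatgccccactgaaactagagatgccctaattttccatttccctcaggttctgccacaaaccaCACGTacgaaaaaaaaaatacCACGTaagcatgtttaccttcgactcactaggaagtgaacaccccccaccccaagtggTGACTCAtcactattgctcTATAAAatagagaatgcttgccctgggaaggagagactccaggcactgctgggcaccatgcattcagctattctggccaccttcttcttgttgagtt
Dclk1: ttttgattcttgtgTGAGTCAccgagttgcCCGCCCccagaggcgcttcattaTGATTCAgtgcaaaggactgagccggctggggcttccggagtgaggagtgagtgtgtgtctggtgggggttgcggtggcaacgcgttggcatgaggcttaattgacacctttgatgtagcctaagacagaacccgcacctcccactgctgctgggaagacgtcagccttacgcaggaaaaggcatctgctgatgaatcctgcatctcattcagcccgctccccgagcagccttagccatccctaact
Rtn4ip1: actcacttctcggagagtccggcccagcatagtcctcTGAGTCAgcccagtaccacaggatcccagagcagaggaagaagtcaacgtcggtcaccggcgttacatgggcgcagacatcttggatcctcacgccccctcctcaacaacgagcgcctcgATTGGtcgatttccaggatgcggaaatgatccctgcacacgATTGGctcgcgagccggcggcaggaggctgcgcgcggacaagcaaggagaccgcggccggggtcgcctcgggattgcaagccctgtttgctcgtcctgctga
Odc1: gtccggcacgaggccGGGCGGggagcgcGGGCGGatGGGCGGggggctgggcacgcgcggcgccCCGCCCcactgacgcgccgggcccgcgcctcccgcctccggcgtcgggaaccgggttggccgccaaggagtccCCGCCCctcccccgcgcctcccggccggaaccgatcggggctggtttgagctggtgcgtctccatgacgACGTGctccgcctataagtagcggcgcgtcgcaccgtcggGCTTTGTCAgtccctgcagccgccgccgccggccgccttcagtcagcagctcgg

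The motif TGANTCA, the letters of an AP-1 site, stood in 3 of the 25 member windows (12%), against 4.43% of the windows of 6607 genes of at least 5 CPM and 7.33% of all 33469 windows. In the Mmp13 window it began at position -66 counted from the start, and TATAAA at position -47. Dclk1 held it at positions -236 and -197. TATAAA also stood in the Cga and Maged2 windows, 3 of 25 (12%) with Mmp13, against 5.55% of windows of genes of at least 5 CPM and 14.2% of all windows. GGGCGG, a GC box, was in 16 of 25 member windows (64%), near the 67.1% of genes of at least 5 CPM. Odc1 held 5 copies, on both strands, and Srd5a1, Podxl, Rassf3 and Pdlim1 held more. CCAAT was in 6 of 25 (24%), against 38.4% of genes of at least 5 CPM and 37.5% of all windows, CACGTG in 1 of 25 (4%), against 10.1% and 6.42%, and TGACGTCA in 0 of 25, against 3.54% and 1.83%. ACGTG, which lies within CACGTG, was in 6 of 25 (24%), against 27.5% and 19.3%. Shares were 16% for TGACNNNGC, against 15.5% and 12.1%, and 12% for CAGCTG, against 15.4% and 15.1%. The EGR-type letters GCGGGGGCG stood in 3 windows (12%), against 5.62% and 2.73%, and AGATAA was in the Sytl4 window alone (4%), against 5.55% and 11.6%. No member window held TTTCGCGC, found in 0.711% and 0.326% of the same 2 sets. Nor did any hold TTTGGCGC (1.06% and 0.493%), the letters TGATGNAA (1.70% and 3.98%) or GCGTGGGCG (1.06% and 0.544%). Such matches describe letters in a window and show no binding. The windows had a median GC content of 67.0%, against 62.0% for genes of at least 5 CPM.

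Mmp13 had the lowest ratios and encodes collagenase-3, a secreted protease of fibrillar collagen. In replicates 1, 2 and 3 it had 47.0, 33.8 and 43.3 CPM in α1ACT at 3 d, against 254, 85.1 and 257 CPM at 6 h. At 10 d the α1ACT line had 56.7, 31.3 and 53.8 CPM, against 337, 98.3 and 285 CPM at 24 h. The vector line had 32.2, 35.3 and 37.0 CPM at 3 d, against 168, 57.3 and 171 CPM at 6 h, and 42.1, 23.6 and 40.0 CPM at 10 d, against 262, 83.8 and 262 CPM at 24 h. In all 4 pairs every later library lay below every earlier one, and the earlier libraries of replicate 2 lay far below those of replicates 1 and 3. The later groups were 4.76-fold lower in α1ACT at 3 d, 5.04-fold lower in α1ACT at 10 d, 3.74-fold lower in vector at 3 d and 5.68-fold lower in vector at 10 d, and no other member reached a mean fold of 2. In bulk RNA, fewer cells that express a gene and less of its RNA per cell cannot be told apart.

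Ntn1, which encodes netrin-1, a secreted cue that steers axons, had 7.07, 6.89 and 6.76 CPM in α1ACT at 3 d, against 11.2, 10.6 and 14.0 CPM at 6 h, and 3.09, 2.72 and 4.26 CPM at 10 d, against 9.21, 5.66 and 6.28 CPM at 24 h. In the vector line it had 6.80, 6.58 and 5.15 CPM at 3 d, against 12.9, 14.1 and 11.9 CPM at 6 h, and 2.96, 5.03 and 3.72 CPM at 10 d, against 8.61, 6.43 and 9.25 CPM at 24 h. Its later libraries were below the earlier ones in each pair, with log2 ratios of -0.75, -0.97, -1.01 and -0.97, a mean fold of 1.90. Mdga1, a GPI-anchored surface protein that binds neuroligins, had ratios of -0.81, -0.68, -0.95 and -0.70 in the same order, and Lrp4, a receptor for agrin, -0.58, -0.59, -0.52 and -0.75. Mmp13, Ntn1, Mdga1 and Lrp4 were the 4 members with every ratio at or below -0.5, and in all 4 genes the libraries of the 2 groups did not overlap in any pair. Other members also encode secreted or surface proteins. St14, which encodes the membrane protease matriptase, had a mean log2 ratio of -0.45, Bmp7, a secreted ligand of the BMP family, -0.48, and Ptprk, a receptor tyrosine phosphatase, -0.46. The orphan receptor gene Gprc5c had -0.45, the sialomucin gene Podxl -0.39, and Pcdhac2, a clustered protocadherin, -0.44. Counts of Pcdhac2 are uncertain, since protocadherin genes of a cluster share exons.

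**Figure D1:**
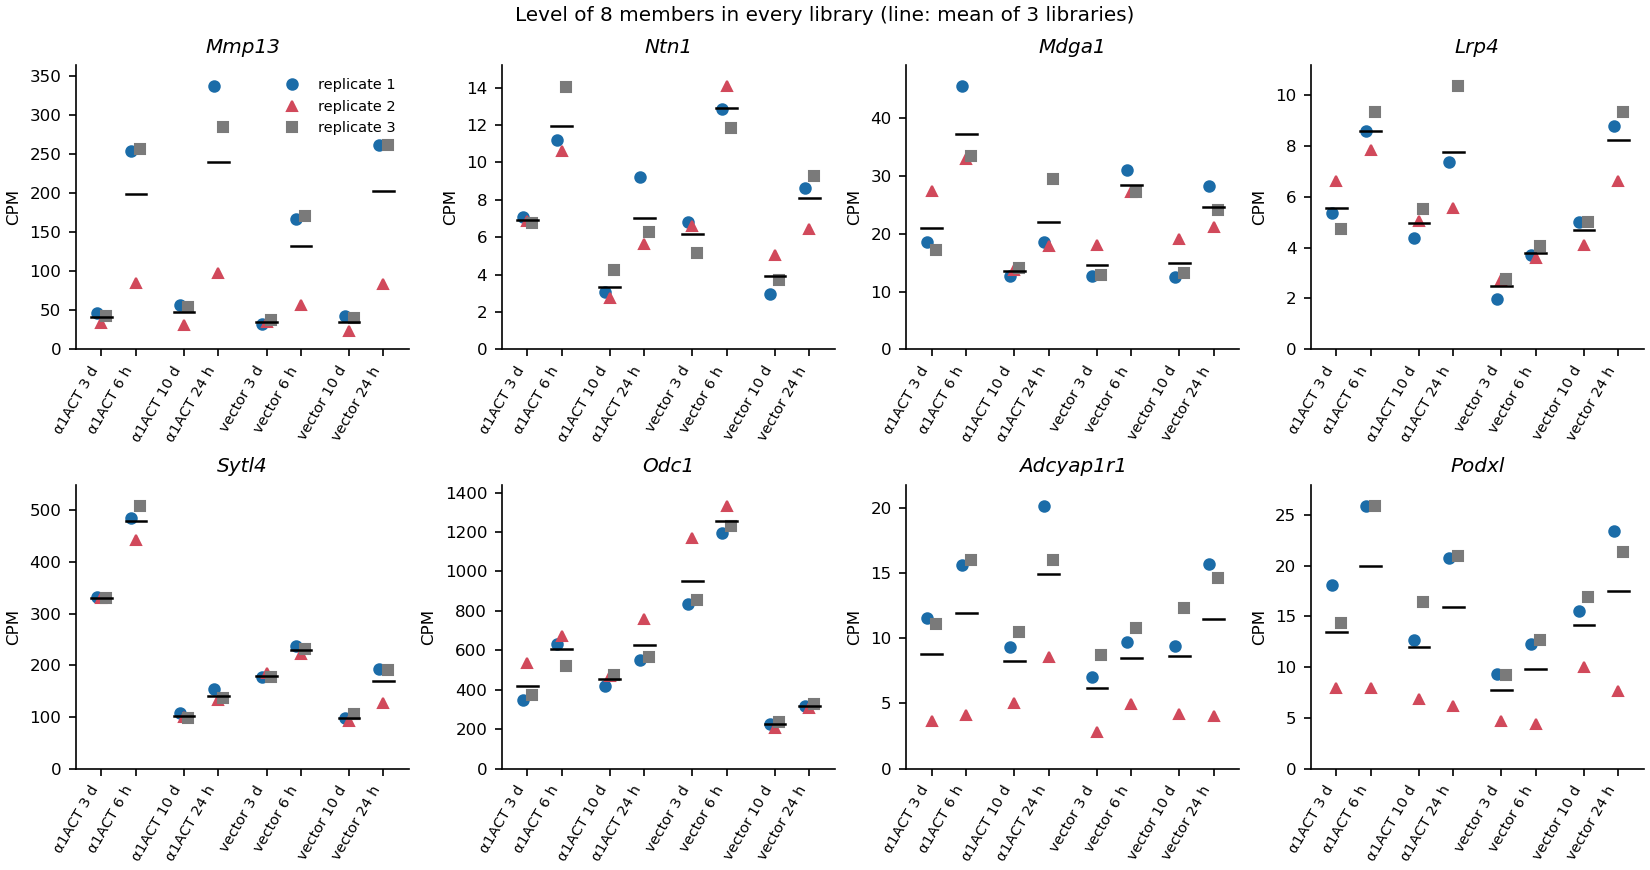
CPM of 8 members (vertical axis, from 0) in each of the 24 libraries, with the later group left of the earlier one in each pair and a line at the mean of 3 libraries. Mmp13 was lower in every later library, while replicate 2 (triangles) had 57.3 to 98.3 CPM in the earlier groups, where replicates 1 and 3 had 168 to 337 CPM, and Adcyap1r1 and Podxl were lowest in replicate 2 of every group.

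Sytl4 encodes granuphilin, a Rab effector that docks dense-core granules at the plasma membrane. It had 331, 329.9 and 330.4 CPM in α1ACT at 3 d, against 485, 442 and 509 CPM at 6 h, and 107, 99.3 and 97.2 CPM at 10 d, against 153, 133 and 136 CPM at 24 h. In the vector line it had 178, 184 and 177 CPM at 3 d, against 236, 222 and 231 CPM at 6 h, and 98.0, 91.5 and 106 CPM at 10 d, against 193, 126 and 190.3 CPM at 24 h. Again no later library reached an earlier one of its pair. Slc18a1, the vesicular monoamine transporter of chromaffin granules and the member with the highest mean (917 CPM, not scaled for gene length), averaged 876 ± 74.3 CPM in α1ACT at 3 d, against 1085 ± 212 CPM at 6 h, and 822 ± 73.0 CPM at 10 d, against 1005 ± 69.4 CPM at 24 h (SD, n = 3). In the vector line it averaged 578 ± 22.8 CPM at 3 d, against 717 ± 109 CPM at 6 h, and 942 ± 65.8 CPM at 10 d, against 1313 ± 57.2 CPM at 24 h. Slc18a1 was also 1 of the 11 chromaffin markers in the tables. Their summed level averaged 29638 CPM in α1ACT at 3 d, against 31443 CPM at 6 h, and 37116 CPM at 10 d, against 36648 CPM at 24 h, and in vector 27787 CPM at 3 d, against 28068 CPM at 6 h, and 27777 CPM at 10 d, against 29175 CPM at 24 h. The summed fibroblast markers, 2 of 9 of which averaged at least 1 CPM and nearly all of which was Fbln1 (288 CPM on average), were lower in the later group of every pair. They averaged 318 CPM in α1ACT at 3 d, against 354 CPM at 6 h, and 283 CPM at 10 d, against 327 CPM at 24 h, and in vector 244 CPM at 3 d, against 307 CPM at 6 h, and 229 CPM at 10 d, against 261 CPM at 24 h, with sums of 212 to 379 CPM over libraries. Their part in the members' ratios was not tested. Other members belong with signalling and release. Adcyap1r1, the receptor of PACAP, had a mean log2 ratio of -0.51, the liprin scaffold gene Ppfia2 -0.29, and Cga, the alpha subunit shared by glycoprotein hormones, -0.38. Of the genes for ion transport, Kcnc4, a voltage-gated potassium channel subunit, had -0.44, the anion exchanger gene Slc26a4 -0.34, and Ryr2, a calcium release channel of the endoplasmic reticulum, -0.26.

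Odc1, the rate-limiting enzyme of polyamine synthesis, had 346, 535 and 371 CPM in α1ACT at 3 d, against 629.8, 671 and 522 CPM at 6 h, and 418, 469 and 474 CPM at 10 d, against 551, 757 and 565 CPM at 24 h. In the vector line it had 833, 1168 and 857 CPM at 3 d, against 1195, 1335 and 1233 CPM at 6 h, and 228, 208 and 238 CPM at 10 d, against 318, 309 and 328 CPM at 24 h. Replicate 2 of α1ACT at 3 d was above replicate 3 of α1ACT at 6 h, and the other 3 pairs did not overlap. Srd5a1, which reduces testosterone to dihydrotestosterone, had a mean log2 ratio of -0.39, Ugt8, the galactosylceramide synthase of myelin lipids, -0.28, and the mitochondrial protein gene Rtn4ip1 -0.25, the ratio nearest 0 among the members. Of the transcriptional regulators, the homeobox gene Pitx1 had -0.59, the forkhead gene Foxo1 -0.36, Mab21l2 -0.31 and the co-regulator gene Cited2 -0.28. For genes of the cytoskeleton and its regulators, Nin, which anchors microtubules at centrosomes, had -0.46, the PDZ and LIM domain genes Pdlim5 and Pdlim1 -0.40 and -0.34, and Dclk1, a kinase that binds microtubules, -0.39. Arhgap29 and Arhgef3 had -0.30 and -0.26. The remaining members were Samd4a, an RNA-binding repressor of translation (-0.39), Rcn3, a calcium-binding protein of the endoplasmic reticulum (-0.39), Maged2 (-0.41), Rassf3 (-0.31), Psmb10, a subunit of the immunoproteasome (-0.30), Necap2, an endocytic adaptor protein (-0.30), and LOC683613 (-0.45).

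The folds of most members were small. The median fold was 1.31 (1.19 to 4.75), 34 of 39 were under 1.5-fold, and 1 was above 2-fold. Median log2 ratios were -0.40 in α1ACT and -0.32 in vector for 3 d over 6 h, and -0.37 in α1ACT and -0.44 in vector for 10 d over 24 h, where all 8751 genes had medians between -0.01 and 0.00. Arhgap29, Rassf3 and Arhgef3 were just inside the threshold, at -0.206, -0.206 and -0.207 in their ratio nearest 0, and Fam46b, Ccdc148 and Apaf1 just outside, at -0.192, -0.189 and -0.184. In 15 members the later libraries lay below the earlier ones in all 4 pairs, as in 0.377% of the 8751 genes, in 9 members in 3 pairs, in 5 in 2 pairs, in 6 in 1 pair, and in 4, Adcyap1r1, Podxl, Dclk1 and Ryr2, in none. Within single pairs that held for 7.95% of genes in α1ACT at 3 d, 11.5% in α1ACT at 10 d, 10.6% in vector at 3 d and 13.4% in vector at 10 d. The rule fixed the direction of these counts, so nothing is read from them.

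**Figure D2:**
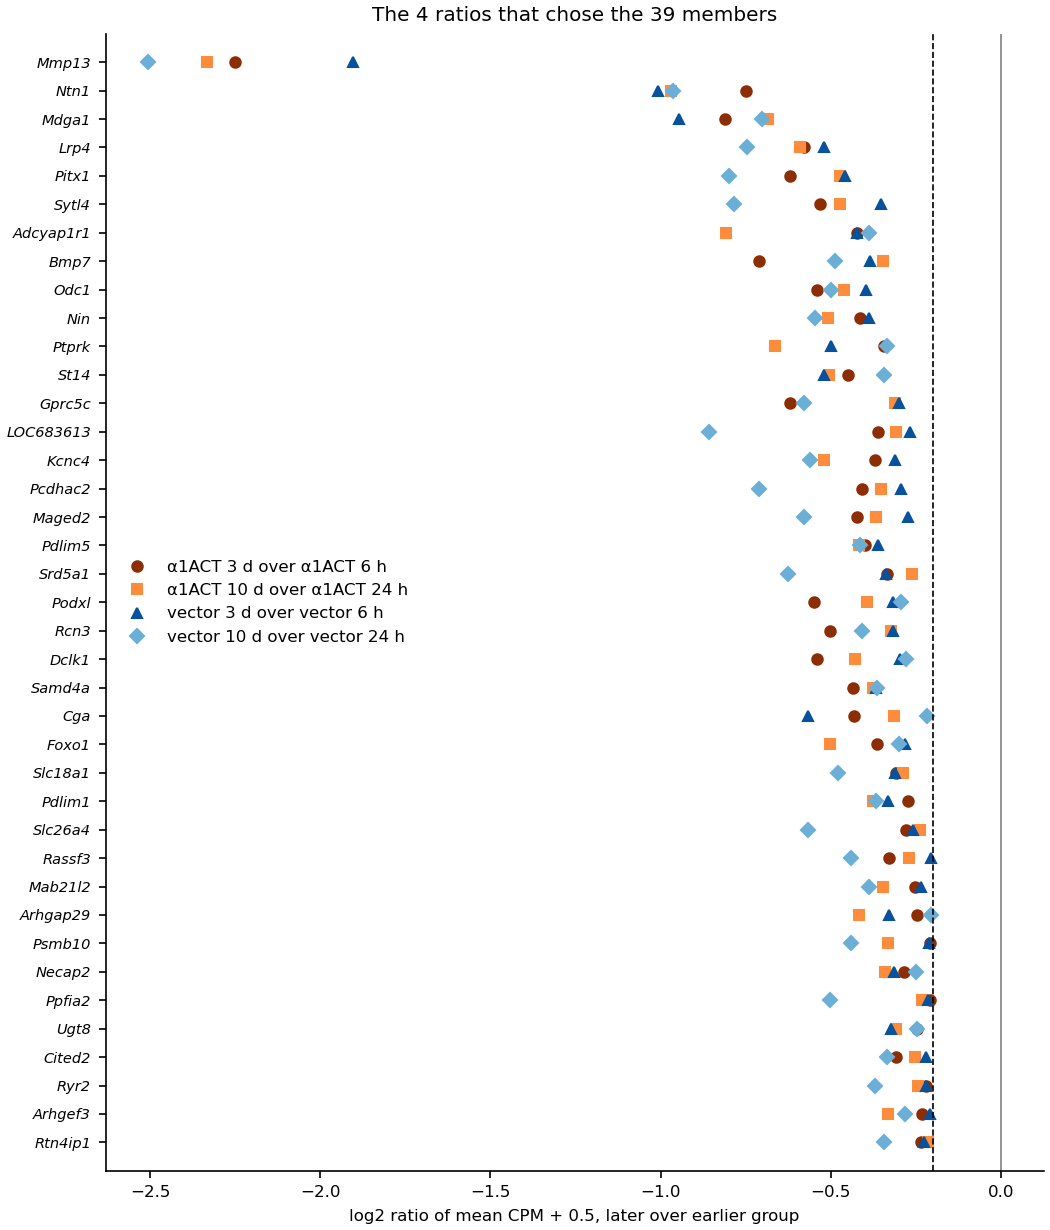
log2 ratio of the later over the earlier group mean (each plus 0.5 CPM, horizontal axis) of the 39 members (rows) in 4 pairs, with the threshold of -0.2 dashed. Mmp13 stood apart at -1.90 to -2.51, Ntn1, Mdga1 and Lrp4 followed, and the other members lay between -0.21 and -0.86.

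The members' ratios rested unequally on the 3 replicates. Taken from the libraries of replicate 2 alone, the median over members of the mean log2 ratio was -0.23, against -0.53 from replicate 1 alone and -0.43 from replicate 3 alone, values that are not independent of the rule. Of the 39 members, 36 had a mean ratio nearer 0 in replicate 2 than in replicates 1 and 3, and 35 were below 0 in it. All 4 ratios were below 0 in replicate 2 in 23 of 39 members, and in 8.97% of the 8751 genes. The ratio of Mmp13 was -1.36 in replicate 2 and -2.48 in replicates 1 and 3, or 2.57-fold and 5.56-fold lower. Ntn1 kept most of its difference, at -0.72 in replicate 2 and -1.02 in the others, and Odc1 and Maged2 hardly moved, at -0.45 and -0.41 against -0.50 and -0.41. Ptprk, Podxl, Ryr2 and Nin were not lower in replicate 2, with mean ratios of 0.19, 0.15, 0.06 and 0.05 there, against -0.76, -0.51, -0.40 and -0.70 in replicates 1 and 3. Without replicate 2 the rule chose 61 genes, 37 of them among the 39. The labels give no meaning to the number of a replicate.

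**Figure D3:**
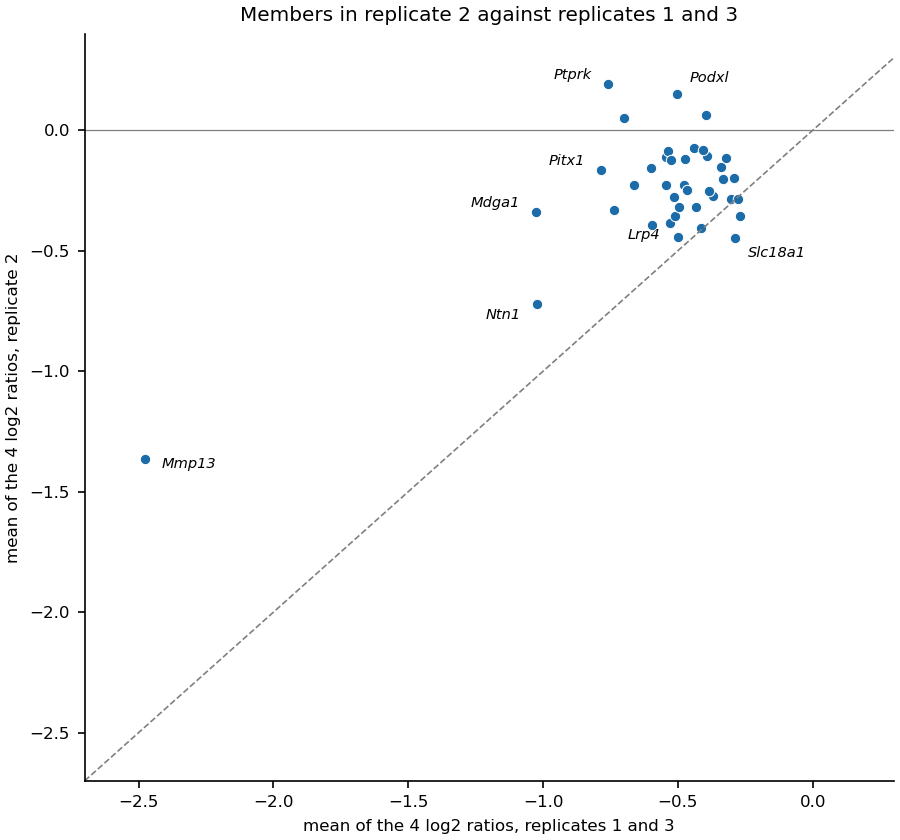
Mean of the 4 log2 ratios of each member from the libraries of replicate 2 (vertical axis) and of replicates 1 and 3 (horizontal axis), with equality dashed. Mmp13 was at -1.36 and -2.48, and 36 of the 39 members lay above the line, nearer 0 in replicate 2.

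Of 42 lists of pathways and cell functions, 7 held a member, 1 each, so 7 of the 39 members were in a list, against 8.55% of the 8751 genes. They were Slc18a1 among catecholamine genes, Dclk1 among neurite and cytoskeleton genes, Ntn1 in axon guidance, Kcnc4 among voltage-gated channels, Psmb10 in interferon and antigen presentation, Mmp13 in extracellular matrix, and Bmp7 in TGF-beta and BMP signalling. Of the 12 catecholamine genes of at least 5 CPM, Slc18a1 included, 3 had all 4 ratios below 0 and 2 had all above, with a median mean ratio of 0.05. For axon guidance 2 of 15 had all ratios below 0 and 6 of 15 all above, with a median mean ratio of 0.11. Among voltage-gated channels 2 of 20 were below 0 in all 4 pairs and 11 of 20 above. DNA replication genes gave no member, though 12 of 34 were below 0 in all 4 pairs and none above, with a median of -0.12. For comparison, 1311 of the 8751 genes were below 0 in all 4 pairs and 1148 above. The 38 members matched in the annotation stood on 16 chromosomes, with 7 on chromosome 2, and no 2 of them lay within 10 protein-coding genes of each other.

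Comparisons that the rule did not use were those between pairs. Each sums the 2 groups that the rule subtracts, so it is orthogonal to the 4 ratios in the model. They were tested with edgeR's quasi-likelihood test on all 24 libraries, with Benjamini-Hochberg adjustment over 9994 genes, and all 39 members were tested. The highest group mean was 1.55 to 22.3 times the lowest (median 2.57), and it was α1ACT at 6 h in 19 members, vector at 6 h in 10, α1ACT at 24 h in 6 and vector at 24 h in 4. The share of reads outside annotated genes differed between the pairs and did not follow the order of the labelled times. In α1ACT it was 51.6% and 52.5% at 24 h and 10 d, against 49.6% and 49.9% at 6 h and 3 d. In vector it was 50.4% and 50.9%, against 48.7% and 48.8%. The part of this share in the results was not tested. Of the 39 members 37 passed the test in at least 1 of the 4 comparisons that follow, as did 93.3% of all genes tested. Numbers of members that held in every alternative run are given beside each count. Changes named below held in all of them, unless said otherwise.

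In the vector line the mean of 24 h and 10 d was set against the mean of 6 h and 3 d. Here and below, fell and rose mean lower and higher over 24 h and 10 d than over 6 h and 3 d. They name no course over time, since the labelled times of the 2 sides alternate. Dclk1 in vector averaged 94.5, 5.26, 76.8 and 4.25 CPM at 6 h, 24 h, 3 d and 10 d. Of 39 members 22 fell, all of which held in every alternative, and 11 rose, of which 8 held, against 34.9% and 37.9% of all genes tested that fell and rose. The median log2 change was -0.33 over members and 0.03 over all genes. Dclk1 had 6.36, 3.95 and 5.45 CPM at 24 h and 4.67, 4.19 and 3.87 CPM at 10 d, against 103, 86.7 and 94.2 CPM at 6 h and 66.4, 95.6 and 68.2 CPM at 3 d. The 2 sides did not overlap, as in 13 of 39 members and 49.4% of all genes tested, and Dclk1 fell by 4.18 ± 0.14 on the log2 scale, 18.1-fold (adjusted p = 6.92e-19). Samd4a fell by 2.26 ± 0.15, with 6.07 to 8.72 CPM at 24 h and 10 d, against 23.6 to 49.5 CPM at 6 h and 3 d (adjusted p = 2.95e-13). For Odc1 the fall was 2.04 ± 0.10, 4.13-fold (adjusted p = 1.75e-15), with no library of 24 h or 10 d above 328 CPM and none of 6 h or 3 d below 833 CPM. Cga fell 3.26-fold, Srd5a1 3.09-fold, Pdlim5 2.35-fold and Pdlim1 2.08-fold, and smaller falls were seen for Sytl4 (1.59-fold), Ntn1 (1.61-fold), Kcnc4 (1.78-fold) and Psmb10 (1.88-fold). Other members went the opposite way. Lrp4 rose by 1.02 ± 0.15 on the log2 scale (adjusted p = 1.21e-06), with 4.11 to 9.32 CPM at 24 h and 10 d, against 1.97 to 4.05 CPM at 6 h and 3 d. Rcn3 rose by 0.98 ± 0.07 (adjusted p = 9.37e-12) and Slc18a1 by 0.77 ± 0.08 (adjusted p = 9.27e-10), with 885 to 1368 CPM of Slc18a1 at 24 h and 10 d, against 562 to 843 CPM at 6 h and 3 d. Pitx1, Foxo1, Ryr2, Gprc5c and Rtn4ip1 rose as well, by 0.68, 0.50, 0.65, 0.51 and 0.31. The summed level of the epithelial markers, 6 of 7 of which averaged at least 1 CPM, moved with the genes that fell. It averaged 662 and 687 CPM at 24 h and 10 d, against 1729 and 1544 CPM at 6 h and 3 d. Krt8 was the largest part of the sum, at 633 CPM on average over all libraries, and Epcam followed at 216 CPM. The part of these markers in the result was not tested.

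In the α1ACT line 21 of 39 members were lower over 24 h and 10 d than over 6 h and 3 d. Of these, 18 held in every alternative. Another 2 were higher, none of them in every alternative. Of all genes tested, 28.7% were lower and 28.6% higher. Members had a median log2 change of -0.29, against 0.00 over all genes. Sytl4 had 153, 133 and 136 CPM at 24 h and 107, 99.3 and 97.2 CPM at 10 d, against 485, 442 and 509 CPM at 6 h and 331, 329.9 and 330.4 CPM at 3 d, and it fell by 1.70 ± 0.07 on the log2 scale (adjusted p = 1.12e-16). Kcnc4 fell by 1.73 ± 0.12 (adjusted p = 1.04e-11), with 6.97 to 12.6 CPM, against 21.3 to 38.4 CPM, and St14 by 1.18 ± 0.16 (adjusted p = 4.72e-07), with 7.49 to 15.7 CPM, against 20.1 to 42.1 CPM. These 3 genes were named because the libraries of the 2 sides did not overlap, as in 8 of 39 members and 30.3% of all genes tested. Dclk1 fell by 1.01 ± 0.13, Pcdhac2 by 0.88 ± 0.06, Ntn1 by 0.87 ± 0.14, Mab21l2 by 0.72 ± 0.13, and Foxo1, Samd4a and Cited2 by 0.70 each. Odc1 and Srd5a1 did not pass, at 0.11 ± 0.10 and -0.03 ± 0.09, nor did Slc18a1 or Lrp4, at -0.07 ± 0.07 and -0.12 ± 0.13. Odc1 passed without replicate 2 of α1ACT at 3 d, at 0.22 (adjusted p = 0.0389), and without replicate 2 of every group, at 0.16 (adjusted p = 0.00558, up to 0.828 over the alternatives). Ntn1, Sytl4, Kcnc4, Cited2, Psmb10, Arhgef3 and Mab21l2 were among the genes that fell in both lines. The summed epithelial markers were lower here too, at 780 and 828 CPM at 24 h and 10 d, against 1134 and 1146 CPM at 6 h and 3 d, and the chromaffin markers higher, at 36648 and 37116 CPM, against 31443 and 29638 CPM. The part of neither in the result was tested.

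**Figure D4:**
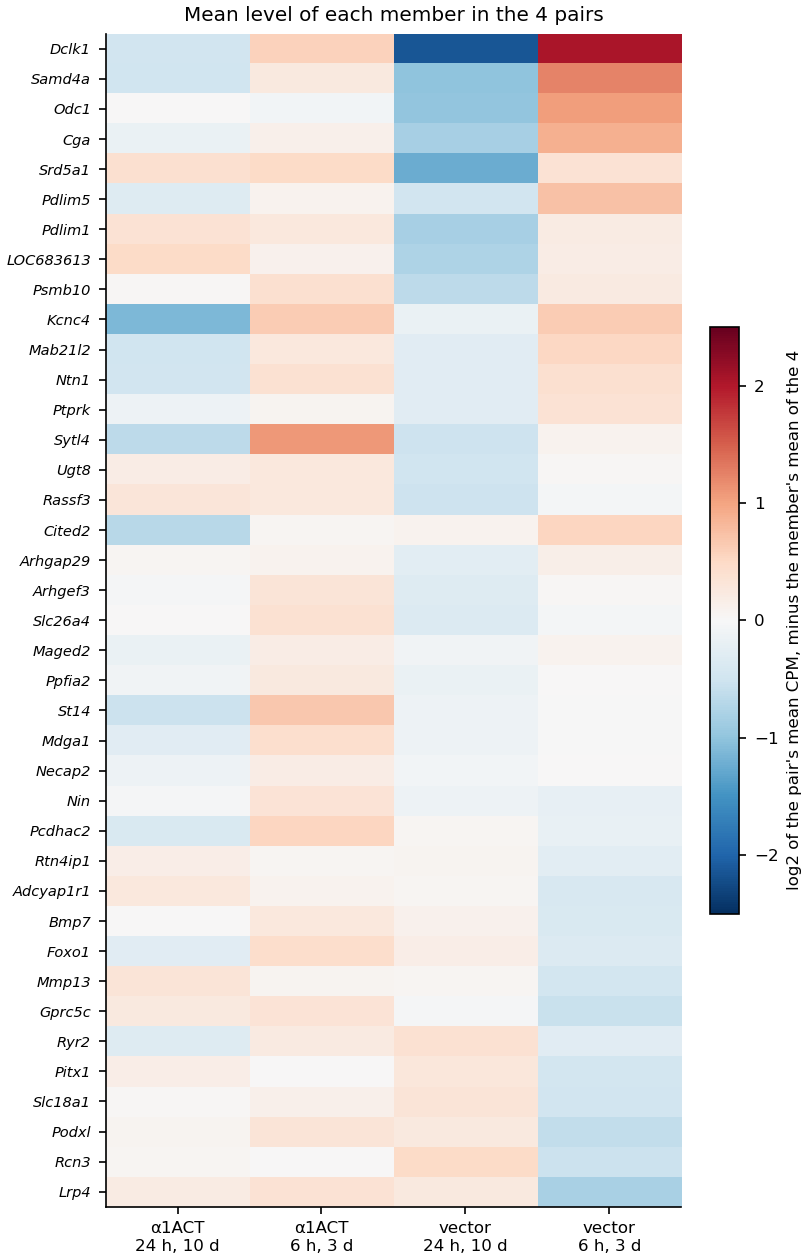
Colour gives log2 of the mean CPM of a pair of groups, minus the member's mean over the 4 pairs, for the 39 members (rows, ordered by the vector difference between times). Dclk1, Samd4a, Odc1 and Cga were highest in vector at 6 h and 3 d and lowest in vector at 24 h and 10 d, while Lrp4, Rcn3 and Slc18a1 were lowest in vector at 6 h and 3 d.

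α1ACT was set against vector over 6 h and 3 d, where 20 of 39 members were higher in α1ACT, 12 of them in every alternative, and 8 were lower, 6 of them in every alternative, against 27.9% and 27.4% of all genes tested. The median log2 difference was 0.24 over members and 0.01 over all genes. The count of higher members was 13 without replicate 3. Lrp4 was higher by 1.14 ± 0.15 (adjusted p = 5.79e-07), with 4.72 to 9.31 CPM in α1ACT, against 1.97 to 4.05 CPM in vector. Sytl4 was higher by 0.93 ± 0.06 (adjusted p = 6.11e-12), with 329.9 to 509 CPM, against 177 to 236 CPM, and Foxo1 by 0.73 ± 0.10 (adjusted p = 1.35e-06), with 15.9 to 26.7 CPM, against 9.99 to 14.4 CPM. These 3 genes were named among those without overlap of libraries, which were 9 of 39 members and 30.6% of all genes tested. Gprc5c, Pcdhac2, St14, Slc18a1, Rcn3 and Ryr2 were higher by 0.84, 0.68, 0.64, 0.56, 0.48 and 0.48. Lower in α1ACT were Dclk1, at -1.52 ± 0.11 (adjusted p = 1.20e-11), with 20.3 to 39.6 CPM, against 66.4 to 103 CPM in vector, Odc1, at -1.16 ± 0.10 (adjusted p = 4.23e-10), and Samd4a, at -1.05 ± 0.13 (adjusted p = 2.69e-07). Cga, Pdlim5 and Cited2 were lower too, at -0.80, -0.68 and -0.53. The epithelial markers had lower sums in α1ACT here, 1134 CPM at 6 h and 1146 CPM at 3 d, against 1729 and 1544 CPM in vector, and their part in the result was not tested.

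Over 24 h and 10 d, 14 of 39 members were higher in α1ACT than in vector, 12 of them in every alternative, and 8 were lower, 6 of them in every alternative, against 33.7% and 34.6% of all genes tested, so the share of higher members was near the background. The median difference was 0.11 over members and 0.00 over all genes. Srd5a1 was higher by 1.66 ± 0.10 (adjusted p = 1.05e-13), with 73.9, 77.9 and 84.8 CPM in α1ACT at 24 h and 63.6, 66.0 and 67.5 CPM at 10 d, against 34.3, 20.2 and 30.9 CPM at 24 h and 16.9, 19.03 and 18.9 CPM at 10 d in vector. Every α1ACT library of Srd5a1 was above every vector library, and 11 of 39 members and 42.3% of all genes tested had no overlap. Dclk1 was higher by 1.65 ± 0.17 (adjusted p = 3.83e-09), with 11.5 to 21.4 CPM, against 3.87 to 6.36 CPM, and LOC683613 by 1.32 ± 0.16 (adjusted p = 8.46e-08), with 9.69 to 18.3 CPM, against 2.85 to 8.35 CPM. Pdlim1 and Odc1 were 2.29-fold and 2.00-fold higher, and Rassf3, Psmb10, Ugt8 and Cga were higher by 0.84, 0.70, 0.68 and 0.66 on the log2 scale. Cited2 was lower, at -0.77 ± 0.05 (adjusted p = 8.70e-13), with 48.5 to 60.2 CPM in α1ACT, against 76.5 to 111 CPM in vector, and so was Ryr2, at -0.68 ± 0.12 (adjusted p = 1.70e-05), with 66.1 to 107 CPM, against 109 to 179 CPM. Kcnc4, Foxo1, Rcn3 and Pcdhac2 were lower as well, at -0.95, -0.46, -0.41 and -0.39. The summed epithelial markers averaged 780 CPM at 24 h and 828 CPM at 10 d in α1ACT, against 662 and 687 CPM in vector. Their part in the result was not tested.

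Mmp13, the member with the lowest ratios, passed none of these 4 comparisons. Its log2 differences were 0.34 ± 0.32 and 0.38 ± 0.33 for α1ACT against vector over 24 h and 10 d and over 6 h and 3 d, and 0.27 ± 0.32 and 0.31 ± 0.33 for 24 h and 10 d against 6 h and 3 d in α1ACT and vector, with adjusted p = 0.355, 0.333, 0.491 and 0.399. Those calls changed without replicate 2. The same differences were then 0.35, 0.46, 0.31 and 0.42, all positive, with adjusted p = 2.38e-06, 2.28e-07, 1.69e-05 and 2.38e-07, and over all alternatives the highest adjusted p was 0.654, 0.632, 0.842 and 0.729. Adcyap1r1 likewise passed none of the 4, with standard errors of 0.34 to 0.36, and without replicate 2 it was higher in α1ACT over 6 h and 3 d by 0.55 (adjusted p = 0.000205, 0.000205 to 0.656 over the alternatives). Without replicate 2 it was also higher in vector at 24 h and 10 d than at 6 h and 3 d, by 0.50 (adjusted p = 0.000246, 0.000246 to 0.499 over the alternatives). Podxl was higher in α1ACT over 6 h and 3 d by 0.88 ± 0.34 (adjusted p = 0.0290), a call lost without replicate 1 and without replicate 3, at adjusted p = 0.195 and 0.120, and in 6 removals of a single library, at up to 0.0983, and with adjusted p = 2.89e-08 without replicate 2.

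The difference between the lines depended on the pair of times in many members, at shares near those of all genes. The difference over 24 h and 10 d minus that over 6 h and 3 d passed the test in 27 of 39 members. Of the 39, 13 were higher (33.3%) and 14 lower (35.9%), against 30.7% and 33.7% of all genes tested. Of these 13 and 14, 11 and 9 held in every alternative. Of the 39 members, 18 passed with the lines differing in opposite directions, 10 of them with both differences past the test. Of all 9994 genes tested, 3067 were higher and 3364 lower in this test. Of the same 9994, 4121 (41.2%) passed with opposite directions, 1863 of them (18.6% of all tested) with both differences past the test. In Dclk1 the change was 3.17 ± 0.20 (adjusted p = 7.46e-13), where α1ACT was lower than vector over 6 h and 3 d and higher over 24 h and 10 d. Odc1, at 2.16 ± 0.14 (adjusted p = 1.35e-12), and Cga, at 1.46 ± 0.14 (adjusted p = 1.74e-09), did the same. Foxo1, at -1.20 ± 0.15 (adjusted p = 8.93e-08), Ryr2, at -1.16 ± 0.17 (adjusted p = 1.58e-06), Pcdhac2, at -1.07 ± 0.09 (adjusted p = 6.26e-11), and Rcn3, at -0.89 ± 0.11 (adjusted p = 5.80e-08), were higher in α1ACT over 6 h and 3 d and lower over 24 h and 10 d. In Srd5a1, Pdlim1 and LOC683613 the lines differed over 24 h and 10 d and did not pass over 6 h and 3 d, and the change between them was 1.59 ± 0.13, 1.19 ± 0.10 and 1.44 ± 0.22. Slc26a4 and Arhgef3 were higher in α1ACT in both, by 0.37 and 0.29 over 24 h and 10 d and by 0.39 and 0.24 over 6 h and 3 d, and Cited2 was lower in both. The 4 comparisons and this one share libraries, so their values for a member are not independent of each other.

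**Figure D5:**
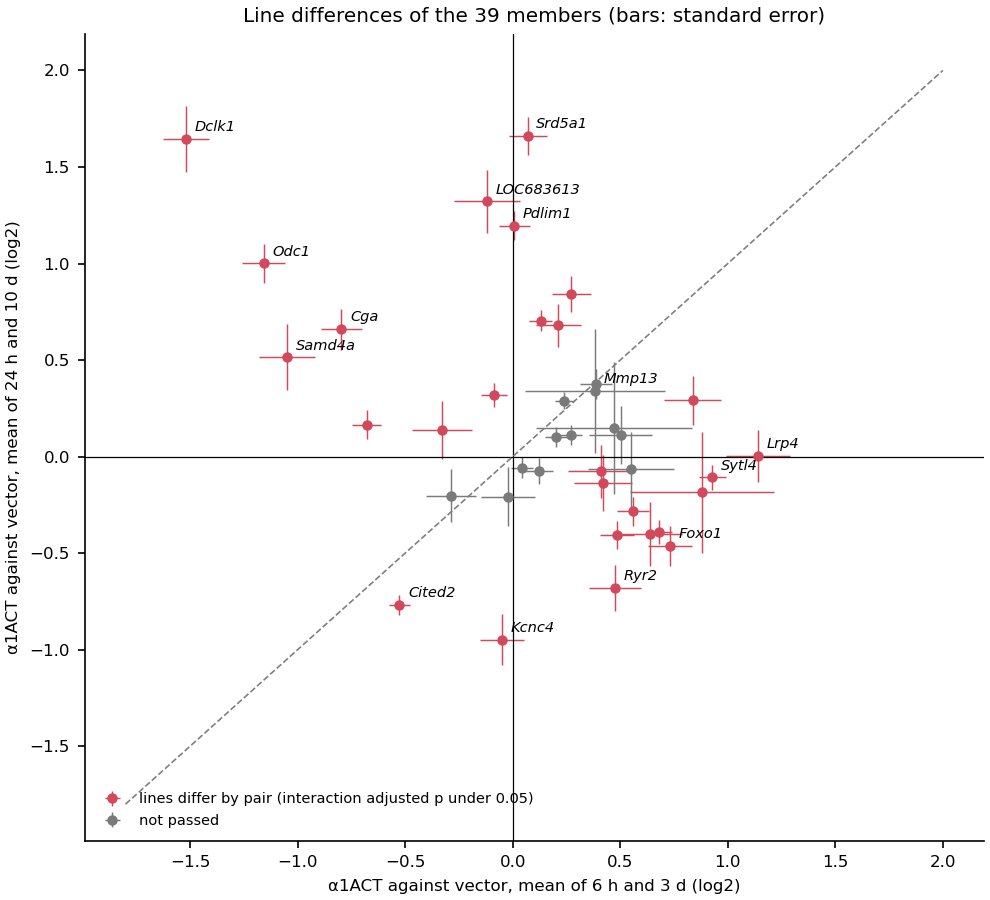
log2 difference of α1ACT against vector over 24 h and 10 d (vertical axis) and over 6 h and 3 d (horizontal axis) for the 39 members, with standard errors, equality dashed and members past the test of the difference between the 2 in red. Dclk1, Odc1, Samd4a and Cga lay at upper left, higher in α1ACT at 24 h and 10 d and lower at 6 h and 3 d, and Foxo1 and Ryr2 at lower right. The higher level of Samd4a in α1ACT at 24 h and 10 d did not pass in every alternative.

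The other genes of the lists that held a member varied in direction. Of 22 neurite and cytoskeleton genes tested, Dclk1 included, 5 rose and 16 fell in vector at 24 h and 10 d against 6 h and 3 d, with a median of -0.51, and 2 rose and 15 fell in α1ACT, with a median of -0.28. Of 18 axon guidance genes, Ntn1 included, 6 rose and 8 fell in vector, and 2 rose and 13 fell in α1ACT, where the median was -0.52. Catecholamine genes, Slc18a1 included, were higher in α1ACT than in vector over 24 h and 10 d in 9 of 12 and lower in 2, with a median of 0.57, and Slc18a1 was 1 of the 2 lower ones, a call lost without replicate 1 (adjusted p = 0.0634). Of 24 voltage-gated channel genes, Kcnc4 included, 4 were higher and 12 lower in α1ACT over 24 h and 10 d. Over 6 h and 3 d the direction was the other way, with 8 higher and 1 lower. In vector 14 rose and 5 fell, and in α1ACT 4 rose and 12 fell. For the other lists only some of the 4 comparisons are given here, and none for the interferon, matrix and TGF-beta lists. These counts stand beside the shares of all genes given above and were not tested as lists.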

How the data were processed

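Total RNA of 24 PC12 libraries was sequenced as read pairs of 100 bases in 3 lanes after depletion of ribosomal RNA with a stranded kit, per the labels. The authors deposited 1 table of raw read counts per gene symbol and library. The submitters' processing notes name the build rn5 and, among the tools, HTSeq 0.5.4p5, TopHat2 2.0.10, Picard 1.117, edgeR and FastQC 0.11.2. Annotation and strand setting were not given in the sources used here, so reads of antisense genes may not be told apart. The 5 summary lines were left out, and reads outside genes were 47.8% to 52.9% of reads assigned, ambiguous or outside genes. Depth is given as the sum of counts on genes, and floors cover counting error only.

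Groups came from the labels. CPM is count over that sum. Counts were fitted in R 4.3.3 with edgeR 4.0.16, using its expression filter, TMM factors of 0.981 to 1.02, 1 coefficient per group, a quasi-likelihood F-test, and Benjamini-Hochberg adjustment over 9994 genes at 0.05, and standard errors are the log2 change over the root of F. The test was tried on simulated counts. Alternatives were DESeq2 1.42.0, other scalings, no filter, a replicate block and removals of libraries. The labels do not say whether replicates were separate cultures, and p-values cover only the spread among these samples, which may be technical. No 2 replicates of a group were alike within sampling noise.

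Named genes were the 12 members with the lowest mean ratio, the 6 with the highest mean CPM, members of the lists, the 3 largest rises and 3 largest falls per comparison without overlap of libraries, and 3 genes on either side of the threshold. Other members are given for completeness. Members and lists were chosen with earlier results of these data known. Symbols were matched to RefSeq's GRCr8 table for 38 of 39 members, 37 of them directly.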

Additional observations from a re-analysis of the deposited data

Results flagged for a closer look

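In 27 of the 39 members the difference between α1ACT and vector over 24 h and 10 d departed from that over 6 h and 3 d by edgeR's test of the difference itself. Of the 39, 13 were higher (33.3%) and 14 lower (35.9%), near the 30.7% and 33.7% of all genes tested. Values are log2, the first minus the second, with standard errors. The change was positive in Dclk1 (3.17 ± 0.20), Odc1 (2.16 ± 0.14), Srd5a1 (1.59 ± 0.13), Samd4a (1.56 ± 0.22), Cga (1.46 ± 0.14), LOC683613 (1.44 ± 0.22) and Pdlim1 (1.19 ± 0.10). Smaller positive changes were those of Pdlim5 (0.85 ± 0.10), Psmb10 (0.58 ± 0.08), Rassf3 (0.57 ± 0.13), Ugt8 (0.47 ± 0.15), Ptprk (0.47 ± 0.20) and Arhgap29 (0.40 ± 0.09).

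Negative changes beyond 1 were those of Foxo1 (-1.20 ± 0.15), Ryr2 (-1.16 ± 0.17), Lrp4 (-1.14 ± 0.20), Pcdhac2 (-1.07 ± 0.09), Podxl (-1.06 ± 0.46), St14 (-1.04 ± 0.22) and Sytl4 (-1.04 ± 0.09). Those of Kcnc4 (-0.90 ± 0.17), Rcn3 (-0.89 ± 0.11), Slc18a1 (-0.84 ± 0.11), Mdga1 (-0.56 ± 0.20), Gprc5c (-0.54 ± 0.18), Pitx1 (-0.48 ± 0.20) and Cited2 (-0.24 ± 0.07) were nearer 0. In 18 of the 27 the lines differed in opposite directions in the 2 pairs of times, and in 10 of these both differences passed. Of all genes tested, 41.2% passed with opposite directions, and 18.6% did so with both differences past the test. The calls of Mdga1, Pitx1, Gprc5c, Podxl, Cited2, Ptprk and Ugt8 were lost in at least 1 alternative, with a highest adjusted p of 0.170, 0.161, 0.0514, 0.241, 0.146, 0.143 and 0.111. By the file names these would be differences among 4 times.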

How the results depend on the processing

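The number of members followed the settings of the rule. It was 145 with a ratio threshold of -0.1 and 17 with -0.3, and 27 to 61 when libraries were left out, with 61 without replicate 2 and 33 to 43 when a single library was left out. Other scalings and pseudocounts gave 38 to 40, and a mean of at least 2 or 10 CPM gave 54 or 30. Under every removal of libraries 12 of the 39 remained members. The ratios from single replicate numbers were added after seeing the data.

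Of 195 results of members in the 4 comparisons and the change between lines, 133 passed the test, 113 of them with every single library left out and 104 in every alternative, and no sign of a called value turned. DESeq2 lost 9 calls and gained 1, RLE factors lost 2, library sizes alone lost 5 and gained 4, no filter gained 2, and fits on the libraries of the comparison lost 1 and gained 3 of 156. Leaving out replicate 1, 2 or 3 lost 24, 2 and 23 calls and gained 0, 20 and 0. Members higher in α1ACT over 6 h and 3 d numbered 13 without replicate 3 (13 to 21 over removals). Members that rose in α1ACT between the pairs of times numbered 1 with library sizes alone and 0 to 6 over removals, 6 of them without replicate 2, so that count is too small to rely on.

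The main test took replicate numbers not to pair the libraries, though libraries partly grouped by number. Same-numbered libraries of different groups correlated at -0.147 to 0.431 in their deviations (median 0.114), with 48 of 84 correlations over 0.1. Libraries with other numbers had a median of -0.067, with 24 of 168 over 0.1. Of 24 libraries, 18 correlated best with their own number. Standard errors of the main test therefore include differences between replicate numbers. With the replicate number as a replicate block 5 calls were gained and none lost, among them Adcyap1r1 over 6 h and 3 d (0.44, adjusted p = 0.00400) and between times in vector (0.43, adjusted p = 0.00278), with 21 members higher in α1ACT over 6 h and 3 d and 15 over 24 h and 10 d.

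At 8679560 counts or more per library, members under 10 CPM had few counts. Differences near 1.15-fold, the rule's threshold, may lie within the spread of replicates, and only 15 of 39 members had no overlap of libraries in all 4 pairs. How many members lay within that spread was not counted.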
